A study of Mus musculus with 96 samples.

Results

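GATA6 binding regions that lay in closed chromatin of the naive state in undifferentiated mouse ES cells were followed through GATA6-driven differentiation. The authors assigned the state from histone marks and the accessibility class from ATAC-seq before induction, and the regions described here are those with the state naive and the class closed. They numbered 7446 of 42403 GATA6 regions, or 17.6%. Another 185 naive regions were moderate or accessible and were not members. The marks and the accessibility signal behind the state and the class were not used here, so the label could not be checked against them.

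The ES cells were KH2 cells of C57BL/6 x 129/Sv background carrying a doxycycline (Dox)-inducible Gata6 expression cassette, so that GATA6 came from a transgene as well as from the endogenous gene, and they were grown on inactivated MEF feeders with LIF. They were profiled untreated (day 0) and after 8, 16, 24, 48 and 96 h of Dox at 1 µg/mL, written below as 8 h, 16 h and days 1, 2 and 4. XEN cells of the X10 line and CD1 strain, untreated and grown without LIF, are a stem cell line of the primitive endoderm (PrE). Inducible ES cells were also given control siRNA or Oct4 siRNA together with 1 µg/mL Dox and profiled at day 2. ChIP-seq was done for GATA6, SOX17, OCT4, SOX2 and ESRRB, beside input, ESRRB not being profiled in XEN cells in the columns used here.

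GATA6 is a zinc finger pioneer factor that binds GATA sequences, including those on nucleosomes, and directs cells of the early embryo to the PrE. SOX17 is an HMG-box factor of the endoderm that follows GATA6. OCT4, SOX2 and ESRRB are pluripotency transcription factors (PTFs), and OCT4 and SOX2 often bind together at a composite OCT:SOX sequence. Closed chromatin without histone marks has no sign of prior use as an enhancer, and pioneer factors are known for binding such sequence.

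Each value is a single number per region and condition, in RPM (read counts scaled to library size), into which the authors pooled the libraries of that condition, 1 to 3 by the labels. GATA6 at day 0 and OCT4 in XEN cells rest on 1 library each. No replicate spread is left in such a column, so no test between conditions was possible and every difference below is a description. A region is said to be higher or lower where log2(RPM + pseudocount) moved by at least 2-fold, and the share of all 42403 regions that did so is given beside it. As a guide to how even a change was, the lowest and highest of the medians over 20 chromosomes are given. Where library depths could be read from the lowest values, taking the smallest step as 1 read, in 40 of 45 columns, they ran from 5415568 to 69435058 reads. GATA6 at day 0 was among the shallowest, with 6122848 reads, and 28.1% of the closed naive regions sat at the lowest value a column can take.

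The sequences of 9 members are shown first, because the timing of binding divides the group. They are the 3 strongest of each GATA6 timing class deposited by the authors, ranked by GATA6 at day 4 for early regions, in XEN cells for late regions and at 8 h for transient regions. Each line is an mm10 stretch read 5′ to 3′ on the strand of the best GATA6 match in the region, with that match in capitals. All of the 9 regions are intronic or intergenic.
Early, intron of Slc7a6, chr8:106173709-106173789, minus strand: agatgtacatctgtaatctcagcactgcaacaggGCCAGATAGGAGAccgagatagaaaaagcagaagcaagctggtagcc
Early, intron of Macrod2, chr2:140748668-140748748, plus strand: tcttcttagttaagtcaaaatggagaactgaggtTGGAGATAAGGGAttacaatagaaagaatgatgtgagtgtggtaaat
Early, intergenic with Nrp1 nearest, chr8:128251887-128251967, minus strand: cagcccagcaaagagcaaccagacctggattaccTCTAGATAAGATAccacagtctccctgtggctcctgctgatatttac
Late, intergenic with Tmem44 nearest, chr16:30483507-30483587, minus strand: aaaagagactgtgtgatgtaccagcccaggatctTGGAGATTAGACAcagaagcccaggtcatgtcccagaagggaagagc
Late, intron of Cald1, chr6:34759302-34759382, minus strand: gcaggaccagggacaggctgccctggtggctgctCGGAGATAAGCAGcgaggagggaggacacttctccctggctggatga
Late, intron of Wars, chr12:108886867-108886947, plus strand: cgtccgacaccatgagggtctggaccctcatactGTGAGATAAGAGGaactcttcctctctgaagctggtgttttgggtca
Transient, intron of Pid1, chr1:84215230-84215310, plus strand: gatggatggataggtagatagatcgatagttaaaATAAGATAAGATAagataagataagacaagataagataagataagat
Transient, intergenic with Ripk2 nearest, chr4:16224765-16224845, minus strand: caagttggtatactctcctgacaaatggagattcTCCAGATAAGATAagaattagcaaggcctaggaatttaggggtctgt
Transient, intergenic with Selenok nearest, chr14:29869112-29869192, minus strand: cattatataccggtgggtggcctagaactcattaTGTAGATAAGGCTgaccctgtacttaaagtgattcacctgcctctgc

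The letters AGATAA stood in 7 of these 9 matches. Over the closed naive regions, 7133 had a GATA6 match and 66.5% of the best matches held AGATAA, beside 59.6% over all regions with a match. The share was 73.1% in early, 73.2% in transient and 56.8% in late members. The strongest GATA6 signal did not always lie at the best match, which was 1618 bp from the GATA6 summit in the Cald1 region and 13 bp from it in the Pid1 region.

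The closed naive regions were AT-rich, distal sequence. Their median GC content was 40.8%, against 45.2% over all regions, and they held 6.06 CpG per kb, against 9.68. The median distance to the nearest start of a protein-coding gene was 55.1 kb, against 31.1 kb, and 0.56% lay within a promoter, against 5.38%. Introns held 49.2% of them and intergenic sequence 48.7%. A GATA6 match of the authors' high score class was present in 35.6%, against 26.8%, and no match at all in 4.2%, against 10.3%. High-scoring OCT:SOX matches were found in 5.39%, against 6.68%, and ESRRB matches were absent in 63.9%, against 63.7%.

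GATA6 was higher within 8 h of Dox at about as many of these closed regions as not, and its median was highest in XEN cells. The median was 0.327 RPM before Dox, 1.04 after 8 h, 1.11 after 16 h, then 1.21, 1.19 and 1.64 on days 1, 2 and 4, and 1.83 in XEN cells. Over all regions it was 0.49 before Dox and 1.49 after 8 h, and then 1.45, 1.29, 1.13, 1.29 and 1.34. In RPM per region, the closed naive regions thus started below the median region and were above it from day 2 on. They were also wider, with a median of 594 bp against 524 bp over all regions. RPM per region grows with width, so these medians do not give the order per kb. Input stayed between 0.264 and 0.457 RPM in the same regions.

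At 8 h, 3836 members (51.5%) were at least 2-fold higher in GATA6 than at day 0, where 60.4% of all regions were, and 209 were lower (background 1.8%). The median log2 change was 1.06 in members and 1.38 over all regions. Relative to that median of all regions, 1524 members were higher and 2470 lower, with no share over all regions computed for this setting. From 8 h to day 4, 3501 members (47%) were higher, against a background of 30.9%, and 1867 (25.1%) were lower, against 34.8%. The median log2 change over that interval was 0.86 in members, with chromosome medians from 0.50 to 1.49, and was -0.02 over all regions. In closed facultative heterochromatin it was 0.82. Between day 4 and XEN cells, 1512 members (20.3%) were higher and 991 (13.3%) lower, beside backgrounds of 14.4% and 11.7%.

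**Figure D1:**
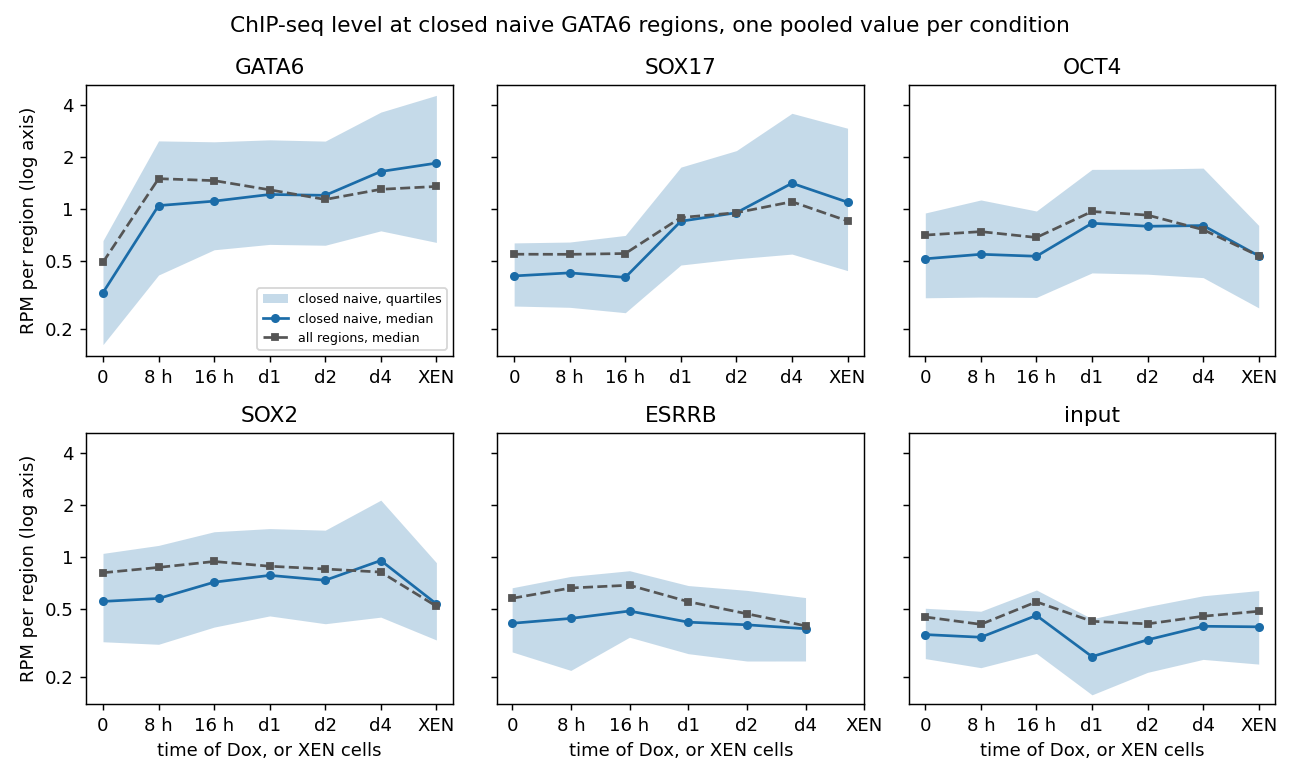
Median level per region (RPM, log axis) of 5 factors and input against time of Dox or XEN cells, for the 7446 closed naive regions (blue, band between the quartiles) and for all 42403 regions (grey squares). GATA6 was above its day 0 level from 8 h and SOX17 and OCT4 from day 1, while ESRRB and input stayed near their day 0 level.

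SOX17 rose at the closed naive regions at day 1, as it did over all regions, and reached its highest median at day 4. Medians were 0.408 RPM before Dox, 0.425 after 8 h and 0.400 after 16 h, then 0.845, 0.947 and 1.40 on days 1, 2 and 4, and 1.09 in XEN cells. The step lay between 16 h and day 1, with a median log2 change of 0.84 (chromosome medians 0.72 to 0.97), beside 0.01 from day 0 to 16 h. Over all regions the same step was 0.60, in closed primed enhancers 0.65 and in closed facultative heterochromatin 0.62, so most of it was not particular to members. From day 0 to day 1, members with a SOX17 peak called by the authors went from 0.464 to 1.44 RPM. Members without one went from 0.349 to 0.537 RPM. At day 4, 4530 members (60.8%) were higher than at day 0, where 44.5% of all regions were, and 167 (2.24%) were lower, where 8.72% were. Relative to the median log2 change of all regions, 0.79, the counts in members were 3105 and 1012, without a share over all regions to set beside them.

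OCT4 and SOX2, factors of the undifferentiated state, also had higher medians at closed naive regions after induction. The OCT4 median was 0.513 RPM before Dox, 0.544 after 8 h and 0.530 after 16 h, then 0.823, 0.791 and 0.798 on days 1, 2 and 4, with 0.533 in XEN cells. At day 2, 1923 members (25.8%) were higher than at day 0, against a background of 14.6%, and 157 (2.11%) were lower, against 4.86%. SOX2 went from 0.551 RPM before Dox through 0.730 at day 2 to 0.950 at day 4, with 0.533 in XEN cells. At day 2, 1085 members (14.6%) were higher in SOX2, beside 6.01% of all regions, and 177 (2.38%) were lower, beside 6.7%. From day 0 to day 4 the median log2 change of SOX2 was 0.71 in members and 0.10 over all regions, and it was 0.64 in closed facultative heterochromatin. The higher day 4 medians were those of the 4073 members with a SOX17 peak called by the authors. From day 0 to day 4, OCT4 went from 0.538 to 1.52 RPM there and SOX2 from 0.593 to 1.90. In the 3373 members without such a peak, OCT4 went from 0.480 to 0.399 RPM and SOX2 from 0.504 to 0.432. At 16 h, SOX2 was already above its day 0 median, at 0.789 RPM with such a peak and 0.631 without. OCT4 was then 0.580 and 0.474.

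ESRRB, an orphan nuclear receptor of the pluripotency network, changed little in RPM. Its median was 0.412 RPM before Dox, 0.439 after 8 h and 0.485 after 16 h, then 0.418, 0.403 and 0.383 on days 1, 2 and 4, near that of input. At day 1, 24 members were higher than at day 0 (0.322%, background 0.271%) and 41 were lower (0.551%, background 2.71%). Relative to the input of the same condition, whose median was lowest at day 1, 465 members were higher and 45 lower. The share over all regions was not computed relative to input.

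**Figure D2:**
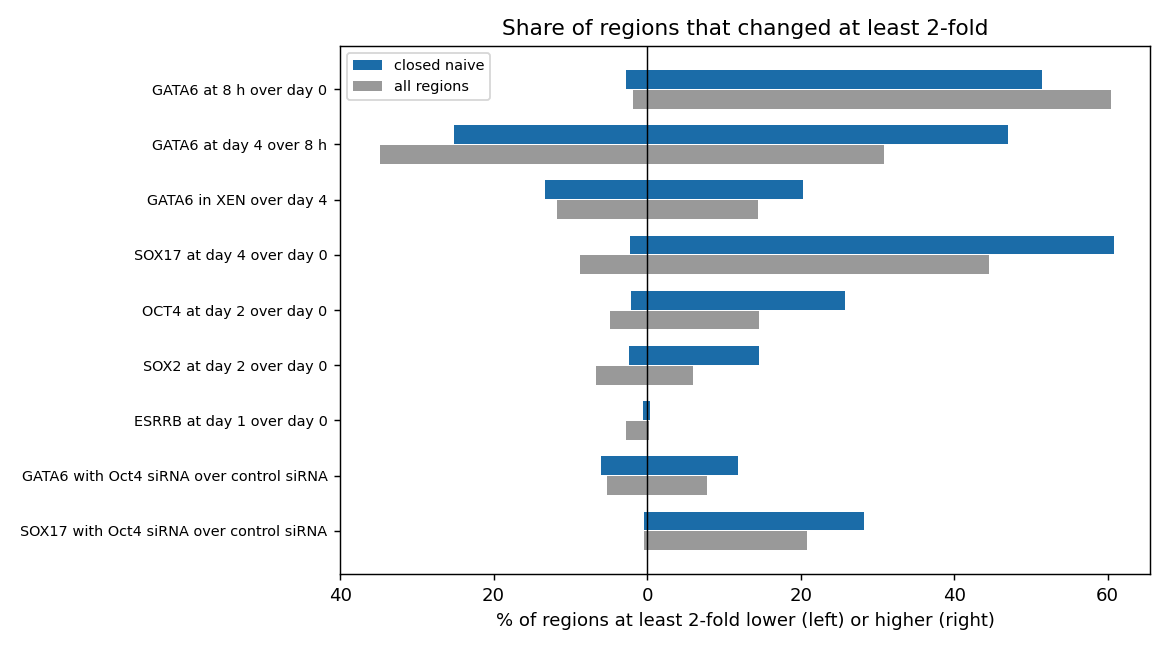
Percentage of regions at least 2-fold lower (left of 0) or higher (right of 0) in each of 9 comparisons, for closed naive regions (blue) and all regions (grey). SOX17 at day 4 was higher in 60.8% of closed naive regions and 44.5% of all regions, and OCT4 at day 2 in 25.8% and 14.6%.

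The members divided into 2928 early, 3100 late and 1418 transient regions (39.3%, 41.6% and 19% of them), where all regions held 28% early, 33.6% late and 38.4% transient. The authors formed these classes from the GATA6 time course itself, so the GATA6 courses that follow only describe them. At 8 h, day 4 and in XEN cells, the median was 2.12, 2.68 and 2.39 RPM in early members. It was 0.370, 1.86 and 2.62 in late members, and 2.13, 0.421 and 0.303 in transient members.

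The other factors were not used for the timing classes and differed between them. SOX17 at day 4 had a median of 2.19 RPM in early, 1.76 in late and 0.317 in transient members, from 0.576, 0.304 and 0.435 at day 0. OCT4 at day 2 was 1.70 in early, 0.473 in late and 0.657 in transient members, from 0.842, 0.303 and 0.759. In late members the OCT4 median was 0.812 RPM at day 4. Between day 0 and day 2, OCT4 was higher in 1202 early members (41.1%), 644 late members (20.8%) and 77 transient members (5.43%). Over all regions of any class, 14.6% were higher and 4.86% lower. That background is not split by timing class, so the class shares cannot be read as particular to closed naive regions. Only transient members had more regions lower in OCT4 (139) than higher. SOX2 at day 4 was 1.45, 1.12 and 0.298 RPM in the 3 classes. Early members were wider, with a median of 747 bp against 516 bp in late and 526.5 bp in transient members. RPM per region grows with width, so these medians do not rank the classes per kb.

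**Figure D3:**
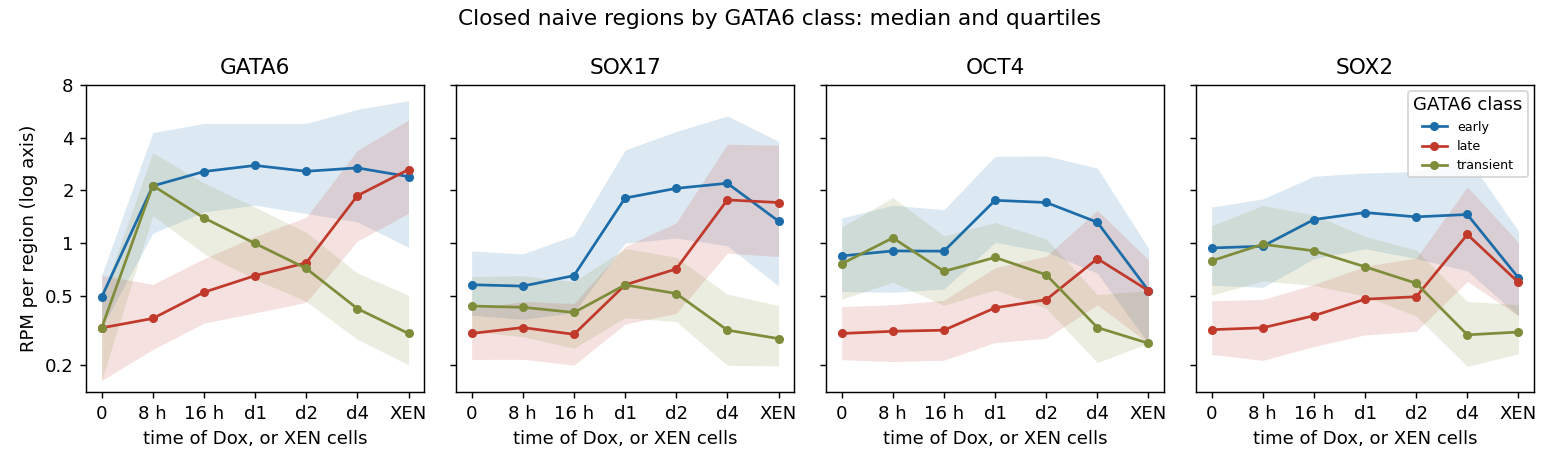
Median level per region (RPM, log axis, band between the quartiles) of GATA6, SOX17, OCT4 and SOX2 against time of Dox or XEN cells, in early (blue), late (red) and transient (olive) closed naive regions. SOX17 at day 4 had medians of 2.19, 1.76 and 0.317 RPM in the 3 classes. Levels are not divided by width, whose medians were 747, 516 and 526.5 bp.

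In the 3 named early members GATA6, SOX17, OCT4 and SOX2 were all higher at day 4 than at day 0, and ESRRB stayed between 1.76 and 4.65 RPM. In the intron of Slc7a6, which encodes an amino acid transporter subunit, GATA6 was 2.94 RPM before Dox, 5.30 after 8 h and 12.1 after 16 h, then 21.4, 23.9 and 60.7 on days 1, 2 and 4, and 39.1 in XEN cells. OCT4 there went from 3.76 RPM before Dox to 51.6 at day 4, against 3.73 in XEN cells. In the intron of Macrod2, GATA6 was 1.96 RPM before Dox, 9.83 after 8 h, 45.1 by day 4 and 68.3 in XEN cells, and SOX17 was 2.61, 2.11, 51.2 and 59.3 at the same times. The region nearest to Nrp1, which encodes a semaphorin and VEGF receptor, had 1.47 RPM of GATA6 before Dox, 4.07 after 8 h, 44.35 by day 4 and 76.0 in XEN cells. In all 3, OCT4 was above its day 0 level at day 1, day 2 and day 4.

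The 3 named late members had less than 2 RPM of GATA6 at 8 h and more than 20 at day 4. GATA6 near Tmem44 was 1.80 RPM before Dox, 1.82 after 8 h, 25.3 by day 4 and 72.4 in XEN cells. In the intron of Cald1, which encodes an actin-binding protein, it was 0.817, 1.54, 24.0 and 56.5. In the intron of Wars, a tryptophanyl-tRNA synthetase gene, it was 0.817, 0.629, 31.2 and 46.6. SOX17 reached 32.0, 21.7 and 40.9 RPM at day 4 in the same regions.

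The 3 named transient members were highest at 8 h. GATA6 in the intron of Pid1 was 1.47 RPM before Dox, 21.9 after 8 h and 8.31 after 16 h, then 4.36, 2.61 and 1.38 on days 1, 2 and 4, and 0.770 in XEN cells. Near Ripk2 it was 0.327 before Dox, 19.8 after 8 h and 1.77 by day 4, and near Selenok 1.47, 18.3 and 0.969. OCT4 was also highest at 8 h in these 3, at 5.27, 9.64 and 6.71 RPM.

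**Figure D4:**
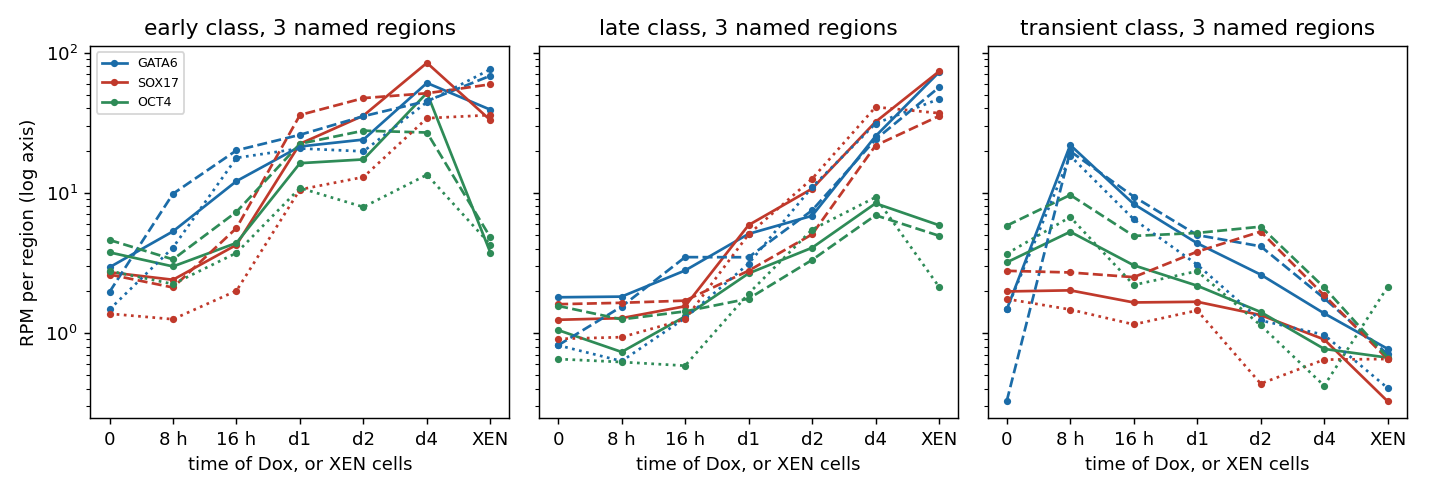
GATA6 (blue), SOX17 (red) and OCT4 (green) level (RPM, log axis) against time of Dox or XEN cells in the 3 named regions of each timing class, with solid, dashed and dotted lines for the regions in the order of the text. Transient regions reached 18.3 to 21.9 RPM of GATA6 at 8 h.

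Motif score was related to the first GATA6 signal and less to the later one. Members with a high-scoring GATA6 match (2651) had a median of 1.80 RPM at 8 h, mid-scoring members (2820) 0.930, low-scoring members (1662) 0.536 and members with no match (313) 0.384. At day 4 the same medians were 1.54, 1.72, 1.69 and 1.26. Within early members the 8 h medians were 2.66 with a high-scoring and 1.53 with a low-scoring match, and at day 4 they were 2.64 and 2.59. For SOX17 the order at day 4 followed its own motif, with 2.38 RPM for high, 1.87 for mid, 1.17 for low and 0.717 for no match. For OCT4 the high-scoring OCT:SOX matches (401 members) were highest at day 0, at 1.04 RPM against 0.508 for low-scoring ones, and lower than them at day 4, at 0.642 against 0.863.

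By PTF peak calls, 650 members (8.73%) were bound at day 0, 1989 (26.7%) acquired a PTF peak only after induction, named ectopic, and 4807 (64.6%) had none. Over all regions the shares were 20.8%, 16.6% and 62.6%. Among closed primed enhancers, 21.1% were ectopic, and among closed facultative heterochromatin 16.7%. Of early members, 48.5% were ectopic, against 13.1% of late and 11.4% of transient members. SOX17 peaks were called in 82.2% of ectopic members, 61.7% of those bound at day 0 and 42.4% of those with no PTF peak. They were called in 54.7% of all members and 44.5% of all regions. The most frequent combinations were late members with SOX17 and no PTF (1528), early ectopic members with SOX17 (1218) and late members with neither (1161).

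The early GATA6 signal was highest where PTF peaks were already present. At 8 h the median GATA6 level was 6.72 RPM in members bound by PTFs at day 0, 1.51 in ectopic members and 0.650 in members without a PTF peak. At day 4 the order was different, with 2.03, 3.72 and 1.25 RPM. Regions bound at day 0 were also wider, with a median of 948.5 bp against 773 and 508 bp, and RPM per region grows with width. Per kb of region, the medians in the same order were 6.83, 2.01 and 1.18 at 8 h, and 2.07, 4.99 and 2.62 at day 4, where the regions bound at day 0 were then the lowest.

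Over the members, the change of OCT4 from day 0 to day 2 ran with that of SOX17 (Spearman's rho 0.81, n = 7446 regions), SOX2 (0.78) and GATA6 (0.62). Over all regions the same values were 0.78, 0.77 and 0.56. The change of input also ran with that of OCT4 (0.37 in members), and all these points share libraries, region width and the shallow values at day 0, so the correlations are descriptions only.

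The strongest OCT4 signals at day 2 were 32.5 RPM nearest to Fgf10, 31.1 in an intron of Cd247 and 27.7 in the Macrod2 region described above. The Fgf10 region, near a gene for a fibroblast growth factor, had 11.96 RPM of OCT4 before Dox, 16.7 after 8 h and 14.5 after 16 h, then 30.02 and 36.8 on days 1 and 4, and 3.599 in XEN cells. The Cd247 region, in a gene for a T-cell receptor chain, had 1.75 before Dox, 0.773 after 8 h and 3.32 after 16 h, then 15.1 and 4.45 on days 1 and 4, and 1.07 in XEN cells. There SOX17 was 41.0 RPM at day 2 and SOX2 5.50 RPM.

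Oct4 siRNA shifted GATA6 in opposite directions in the timing classes. The siRNA libraries were separate from those that defined the classes. With control siRNA and Oct4 siRNA, median GATA6 was 1.37 and 2.25 RPM in late members, 1.15 and 0.747 in transient members and 5.58 and 5.21 in early members. The median log2 changes were 0.58 in late members (chromosome medians 0.45 to 0.70), -0.51 in transient members (-0.63 to -0.34) and -0.10 in early members (-0.22 to 0.03). Over all regions of the same classes, members included, they were 0.48, -0.31 and -0.06, in the same order.

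In all, 881 members (11.8%) were at least 2-fold higher in GATA6 with Oct4 siRNA, against 7.77% of all regions, and 446 (5.99%) were lower, against 5.28%. Of those higher, 814 were late, and of those lower, 247 were transient, 161 early and 38 late. Of all members, 39.3% were early, 41.6% late and 19% transient. The late and transient classes over all regions moved the same way by their medians above, so the split is not particular to members. By PTF class, the median log2 change was -0.38 in members bound at day 0, -0.08 in ectopic members and 0.24 in members with no PTF peak. Members with a high-scoring OCT:SOX match had a median of -0.32, and those with a low-scoring match 0.10.

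SOX17 moved upward with Oct4 siRNA over all regions as well as in the closed naive ones. The median log2 change was 0.52 over all regions and 0.63 in members, a difference of 0.11, and the change was above 0 in 82.0% and 85.4% of them. In 2099 members (28.2%) SOX17 was at least 2-fold higher, beside 20.8% of all regions, and in 30 (0.403%) it was lower, beside 0.441%. Relative to the median of all regions, 714 members were higher and 271 lower, again with no share over all regions computed. The median log2 change was 0.96 in late, 0.54 in early and 0.22 in transient members.

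**Figure D5:**
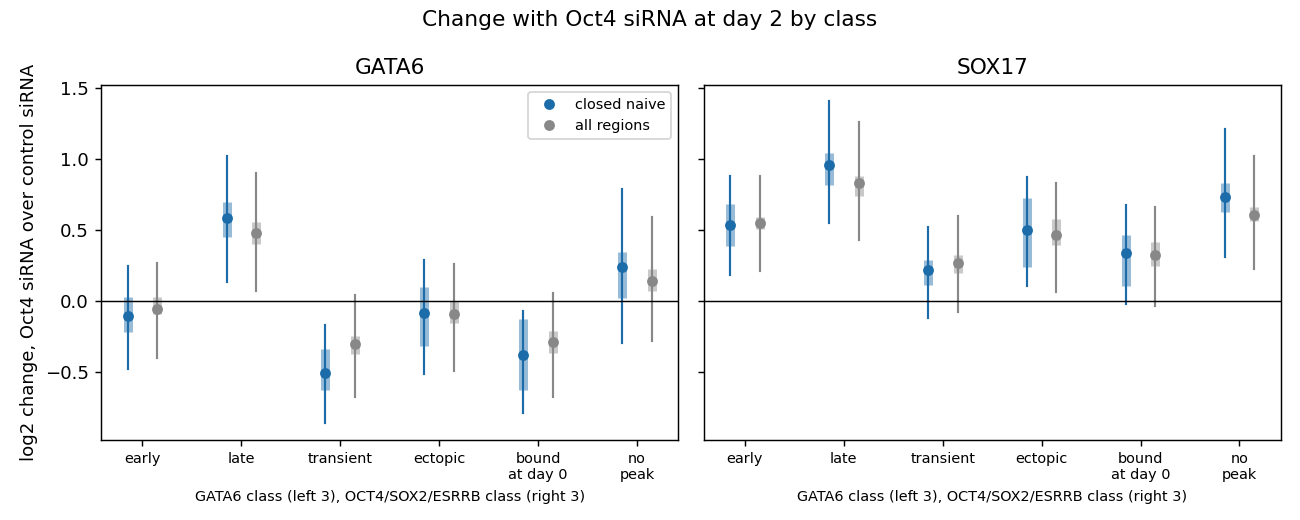
Change of GATA6 (left) and SOX17 (right) with Oct4 siRNA over control siRNA at day 2 (log2 scale) by GATA6 timing class and PTF class, for closed naive regions (blue) and all regions (grey). Points are medians, thin lines quartiles and thick bars the range of the medians over chromosomes. GATA6 medians were 0.58 in late and -0.51 in transient closed naive regions.

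Of the members with at least 2 RPM in a siRNA column, those with the largest falls in GATA6 were 2 intergenic regions, nearest to Sntb1 and Gje1, and both were bound by PTFs at day 0. The region nearest to Sntb1 went from 10.9 to 2.21 RPM, a log2 change of -2.21, and the region nearest to Gje1 from 6.41 to 1.41 RPM, or -2.05. Their best OCT:SOX matches, in capitals, were 4 and 350 bp from the GATA6 summit and are shown because OCT4 was the factor depleted.
Nearest to Sntb1, chr15:56002339-56002421, plus strand: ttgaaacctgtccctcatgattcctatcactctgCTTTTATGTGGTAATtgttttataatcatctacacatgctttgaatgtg
Nearest to Gje1, chr10:15825949-15826031, plus strand: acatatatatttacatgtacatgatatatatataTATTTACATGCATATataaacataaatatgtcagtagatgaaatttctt

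The largest rises were in late members without a PTF peak. The region nearest to Mgat4a went from 0.382 RPM with control siRNA to 4.39 with Oct4 siRNA, and the region nearest to Gorasp2 from 0.630 to 6.10. SOX17 was higher in both as well, by log2 changes of 2.78 and 2.58. In the time course GATA6 was 0.406 and 0.722 RPM in these regions at day 2, and 1.69 and 3.58 at day 4.

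Of 31 PrE genes, 20 had a closed naive member within 100 kb of a start, with 71 members in all, and of 20 pluripotency genes 3 did, with 3 members. Over 21924 protein-coding genes, 34.8% had one. Members made up 19.2% of the 370 regions near PrE genes and 1.49% of the 201 near pluripotency genes, where they made up 17.6% of all regions, so their share near PrE genes was close to that over all regions. Of the 71 members near PrE genes, 36 were early, 32 late and 3 transient, and 58 had a SOX17 peak. Such a peak was called in 54.7% of all members and 44.5% of all regions. In 64 of the 71, SOX17 was higher at day 4 than at day 0, beside 44.5% of all regions and 60.8% of members, and in none was it lower. OCT4 was higher at day 2 in 33, beside 14.6% of all regions and 25.8% of members, and lower in none. GATA6 with Oct4 siRNA was higher in 6 and lower in 1, beside backgrounds of 7.77% and 5.28%.

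The strongest members near PrE genes were early regions. They are shown for the genes of SOX17 itself, of the basement membrane subunit laminin alpha 1 (Lama1) and of the endocytic receptor cubilin (Cubn), with the best GATA6 match in capitals.
Sox17, chr1:4538473-4538553, plus strand: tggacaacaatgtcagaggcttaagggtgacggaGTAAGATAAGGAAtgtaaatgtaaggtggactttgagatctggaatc
Lama1, chr17:67685587-67685667, plus strand: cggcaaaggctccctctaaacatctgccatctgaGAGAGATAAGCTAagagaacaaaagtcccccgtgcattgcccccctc
Cubn, chr2:13496228-13496308, plus strand: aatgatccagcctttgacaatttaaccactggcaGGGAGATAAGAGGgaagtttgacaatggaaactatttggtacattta

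The region near Sox17 lay 40.3 kb from the nearest start. GATA6 there was 0.817 RPM before Dox, 5.54 after 8 h and 14.5 after 16 h, then 17.4, 23.3 and 37.9 on days 1, 2 and 4, and 61.1 in XEN cells. SOX17 there went from 1.98 RPM before Dox to 36.7 at day 4. Near Lama1, GATA6 was 0.817 RPM before Dox, 3.16 after 8 h, 35.0 by day 4 and 41.3 in XEN cells. Near Cubn it was 1.14, 7.84, 33.0 and 43.1. OCT4 went from 2.34 RPM at day 0 to 12.3 at day 2 near Sox17, from 2.12 to 13.6 near Lama1 and from 4.17 to 20.2 near Cubn.

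Regions near Dkk1, a WNT antagonist gene, and Lamc1, the laminin gamma 1 gene, were PTF-bound at day 0 and had the highest GATA6 at 8 h of this list, with 32.4 and 24.6 RPM. With Oct4 siRNA, GATA6 near Dkk1 went from 61.3 to 45.1 RPM, and near Sox17 from 47.1 to 52.8. Of the pluripotency genes, Klf5 had a member with 2.37 RPM of GATA6 at 8 h and 4.86 at day 4. The member near Pou5f1, the gene of OCT4, had 1.67 RPM at 8 h and 0.197 at day 4.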

How the data were processed

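ChIP-seq libraries (96 of 47 conditions per the labels) were used through 45 columns of RPM on 42403 GATA6 regions, in which the authors had pooled libraries. Per the labels, reads were trimmed with cutadapt and aligned to mm10 with Bowtie2. In 40 of 45 columns the low RPM values deposited fell on steps whose sum was the lowest value, as if 1 read had been added per library. ESRRB at 8 h, SOX17 at 16 h, GATA6 and SOX2 at day 4 and XEN input showed fewer steps than labelled libraries, and the day 0 columns other than GATA6 showed none. In 4 columns 100% of values were whole multiples of the step (within 0.02 steps). With 1 value per condition, no count test was run. Motif scores and classes were deposited by the authors. Their siRNA comparison and 14 per-sample columns of accessibility and histone marks were not used.

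Changes were computed with Python 3.11.15 and pandas on log2(RPM + pseudocount), the pseudocount being the 5th percentile of an assay's values (0.158 to 0.195 RPM), and called at 2-fold. Calls were also run on simulated counts with changes well above 2-fold at a single depth, which does not test calls near 2-fold or in shallow columns. Sequence came from GRCm38.p6 and gene starts from GENCODE M21. Named regions were the top 3 of each timing class and of OCT4 at day 2, the top 2 changes each way with Oct4 siRNA, and those of highest GATA6 near listed genes, leaving out chromosomes 18, X and Y. The region of 1 listed gene is not reported here. Members and lists were chosen with earlier results of these data known. Alternatives are given in the closing section.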

Additional observations from a re-analysis of the deposited data

How the results depend on the processing

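Counts of members at least 2-fold higher or lower were recomputed under 8 alternatives, 2 of them (subtracting the added read, leaving out chromosomes 8 and X) chosen after seeing the data, and 91 of 140 values stayed within 1.5 times the reported count. These alternatives were counted in members only, so they have no share over all regions beside them. Without chromosomes 8 and X, which held 219 and 679 members, none of the 18 counts moved further. Counts rather than shares were compared, so a count could pass the limit only if its calls were concentrated on those chromosomes. The other changes follow.

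With a pseudocount 3 times larger, GATA6 was lower at 8 h in 23 members, lower in XEN cells in 586, and with Oct4 siRNA higher in 586 and lower in 205. SOX17 was lower at day 4 in 24 and with Oct4 siRNA in 15, OCT4 higher in 1279 and lower in 60, SOX2 higher in 593 and lower in 53, and ESRRB higher in 1 and lower in 2. With a pseudocount 3 times smaller, the counts of lower members were 403 for GATA6 at 8 h, 328 for SOX17 at day 4, 57 for SOX17 with Oct4 siRNA, 243 for OCT4, 282 for SOX2 and 179 for ESRRB, which was higher in 104. Relative to input, OCT4 was lower in 96 and ESRRB higher in 465. Relative to the median change of all regions, GATA6 at 8 h was higher in 1524 and lower in 2470, SOX17 at day 4 lower in 1012, OCT4 lower in 303, ESRRB higher in 53 and lower in 22, and SOX17 with Oct4 siRNA higher in 714 and lower in 271. Among members with at least 1 RPM in either condition, GATA6 at 8 h was lower in 46, SOX17 at day 4 lower in 58, and ESRRB higher in 10 and lower in 6. At 3-fold, GATA6 was lower at 8 h in 21, in XEN cells higher in 568 and lower in 294, and with Oct4 siRNA higher in 219 and lower in 42. SOX17 was then lower at day 4 in 13 and with Oct4 siRNA higher in 615 and lower in 2, OCT4 higher in 775 and lower in 17, SOX2 higher in 305 and lower in 12, and ESRRB higher or lower in 0. With the added read subtracted, ESRRB was higher in 104 and lower in 114. The larger pseudocount and the higher fold lower a count by construction, and the cause of the other changes was not tested.

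The median change of GATA6 with Oct4 siRNA stayed above 0 in late and below 0 in transient members under 4 alternatives, from 0.46 to 0.67 and from -0.63 to -0.37. A pseudocount leaves the sign of each region's change as it is, so the larger and the smaller pseudocount did not test the sign. With the added read subtracted, the medians were 0.57 in late and -0.58 in transient members. Among members with at least 1 RPM in either condition, they were 0.67 and -0.63. No paired analysis was possible because each column pools the replicates of its condition, and leaving out a replicate was not run for the same reason. Values near the lowest of a column rest on few reads, which limits GATA6 at day 0, where 28.1% of members sat at that lowest value.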

Other observations

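Some best GATA6 matches recurred as identical letters in repeat sequence. The 7133 matches of the closed naive regions had 4679 distinct sequences. Some of the most frequent are shown, picked because their timing classes differed.
Most frequent: AGGAGATAAGAAT
Next: GGCAGATAAAAGG
Also frequent: CAAAGATAAGCCC
Outside repeats: CTGAGATAAGATA
The first was the best match of 40 members, of which 38 were more than 50% soft-masked as repeats and 29 were transient. The next was that of 27 members, of which 24 were mostly masked and 27 transient, with median GATA6 of 1.82 RPM at 8 h and 0.295 at day 4. CAAAGATAAGCCC was the best match of 14 members, all 14 mostly masked, with 11 late, 3 early and 0 transient, and median GATA6 of 0.460 RPM at 8 h and 3.75 at day 4. CTGAGATAAGATA was that of 20 members, 0 of them mostly masked, with 13 early, 3 late and 4 transient. Over all closed naive regions, 13.1% were mostly masked and 19% transient. These members share sequence, so they are not independent, and only reads that map uniquely can be counted in them.

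Input level by chromosome differed between conditions. Over all regions, chromosome 8 stood at 0.39 on the log2 scale above the median region at day 4, at 0.32 in XEN cells at 0.26 at day 1 and at 0.22 at 16 h, but at -0.01 at day 2 and -0.05 at 8 h. The other autosomes lay between -0.09 and 0.25 at day 4, and between -0.25 and 0.00 at 16 h, so chromosome 8 stood apart at both times, but between -0.26 and 0.40 in XEN cells and -0.19 and 0.27 at day 1, which include it. Chromosome X, where 54.8% of the regions were members, lay between -1.05 and -0.51 in all conditions. Both of the named regions on chromosome 8, in Slc7a6 and near Nrp1, were chosen by GATA6 at day 4, and the part of this in their rank was not tested.

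Members also lay near each other: 932 of 7446 (12.5%) had another within 5 kb and 3426 (46%) within 50 kb, so neighbouring values are not independent.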
